A study of Mus musculus with 1 sample.

Results

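Transcripts of the anti-Müllerian hormone receptor Amhr2, its ligand Amh, the inhibin and activin subunits Inha, Inhba and Inhbb, and the follistatin family genes Fst, Fstl1 and Fstl3 were measured in ovarian surface epithelial cells. These cells form the simple layer that covers the ovary. The 8 genes were taken by name from the array's annotation, through every probe set that names only 1 of them. That gave 14 probe sets of 34945 with a single gene symbol, for 8 of 18193 genes. The data were 1 Affymetrix mouse array hybridised with total RNA from wild-type mice aged 3 months. The series design names 3 genotypes, and the wild-type array alone is described, which leaves out any contrast of genotypes and any replicate error. The sources used here do not state the strain, the number of mice pooled or whether the cells were cultured.

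Amhr2 is the type II receptor that binds anti-Müllerian hormone, which signals on through the type I receptors ACVR1, BMPR1A and BMPR1B and the SMAD proteins SMAD1, SMAD5 and SMAD9. Activins are dimers of beta subunits, encoded by Inhba and Inhbb, that act through ACVR2A or ACVR2B with ACVR1B or ACVR1C, and through SMAD2 and SMAD3. Inhibins pair the alpha subunit, encoded by Inha, with a beta subunit and block activin at its type II receptors. Follistatin and FSTL3 are secreted proteins that bind activin. In the ovary, granulosa cells of growing follicles are the best known source of anti-Müllerian hormone and of inhibin.

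The windows upstream of the members' start sites are shown for Amhr2, whose probe sets all lay far above background, for the beta subunit gene Inhbb, and for Fstl1, whose probe sets differed least. Each is the 250 bases before an annotated start, from RefSeq on build GRCm38.p6, written 5′ to 3′ on the gene's strand. Capitals mark AAGGTCA, the core site of NR5A nuclear receptors such as SF-1, and GGGCGG, the GC box of SP1-type factors, or their reverse complements. The Amhr2 window is chr15:102445117-102445366 on the plus strand, and its start site lies 365 bases inside the gene's annotated span. The Inhbb window is chr1:119422249-119422498 on the minus strand. The Fstl1 window is chr16:37776805-37777054 on the plus strand.
Amhr2: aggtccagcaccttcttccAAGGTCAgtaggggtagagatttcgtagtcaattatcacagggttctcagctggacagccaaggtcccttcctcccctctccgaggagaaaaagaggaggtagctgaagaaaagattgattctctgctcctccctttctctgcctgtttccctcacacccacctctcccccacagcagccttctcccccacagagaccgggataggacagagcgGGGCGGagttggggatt
Inhbb: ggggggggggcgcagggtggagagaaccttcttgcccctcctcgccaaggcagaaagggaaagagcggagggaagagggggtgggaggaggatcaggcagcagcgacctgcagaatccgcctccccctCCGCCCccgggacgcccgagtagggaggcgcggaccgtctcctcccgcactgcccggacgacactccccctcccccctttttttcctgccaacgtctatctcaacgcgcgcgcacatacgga
Fstl1: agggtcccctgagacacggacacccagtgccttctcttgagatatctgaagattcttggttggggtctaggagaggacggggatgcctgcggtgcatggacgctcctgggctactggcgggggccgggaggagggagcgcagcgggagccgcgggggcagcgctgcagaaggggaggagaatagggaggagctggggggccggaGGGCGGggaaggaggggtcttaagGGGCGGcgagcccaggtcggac

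Windows were present in the table used for 6 of the 8 members. Amhr2 had the only NR5A core site among the 6, on the plus strand, beginning 231 bases before the start. Of 32536 distinct windows of the same length, 4.09% held this core site. GC boxes occurred in the windows of Amhr2, Inhbb, Fstl1 and Fstl3, against 33.0% of all windows. The Amhr2 box began 17 bases before the start, and the Fstl1 boxes 46 and 22 bases before it. Fstl3 had 4 GC boxes, in 2 pairs whose boxes overlap. The searches also covered TATAAA, the full cAMP response element TGACGTCA, GATAA, which GATA factors recognise, and the SMAD box CAGAC, on both strands. TATAAA was in the windows of Inhba and Fstl3, against 12.3% of all windows. No member's window held TGACGTCA, which 1.56% of all windows held. GATAA was in the window of Amhr2, on the minus strand, against 22.5% of all windows. The SMAD box was in those of Inha and Fstl3, against 42.2% of all windows. The start sites used for Inha and Inhba lie 532 and 7595 bases inside the annotated gene spans, so their windows are not shown. Both windows, and the Amhr2 window, lie inside the spans. A match in them, or the lack of one, does not describe the sequence upstream of the spans. These matches describe letters and not binding.

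An intensity counted as above background when it exceeded 46.5. The limit came from 126 probe sets of keratin-associated proteins and of taste, vomeronasal and olfactory receptors, gene families chosen as not expected in this tissue. It is their 95th percentile, and their median was 13. Passing it does not by itself show that a gene is expressed in these cells. Of 16 measured genes restricted to other organs 5 also passed, among them Ins2, an insulin gene, at 100 and Actn3, a skeletal muscle actinin, at 1334. Of 5 measured Y-linked genes 1 passed, Sry, at 77, in RNA from ovarian cells. All 8 members had at least 1 probe set above the limit, where 62.8% of all genes did. The members were chosen with earlier results of these data known, so such contrasts with all genes only describe them. Of the 14 probe sets 13 were above it, against 55.1% of all probe sets with 1 gene symbol. The median over the members' brightest probe sets was 9.70 on the log2 scale of intensity, and that over all genes was 7.06. Genes with more probe sets pass more often, so the members were also read by their number of sets. All 3 members with 1 probe set passed, against 47.3% of such genes, as did all 4 with 2 sets, against 71.8%, and Amhr2 with 3 sets, against 82.9%. Every set was above the limit in 4 of the 5 members with several sets, against 32.1% of such genes. Probe sets bind their targets with different affinity, so no order between genes is drawn from their intensities.

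**Figure D1:**
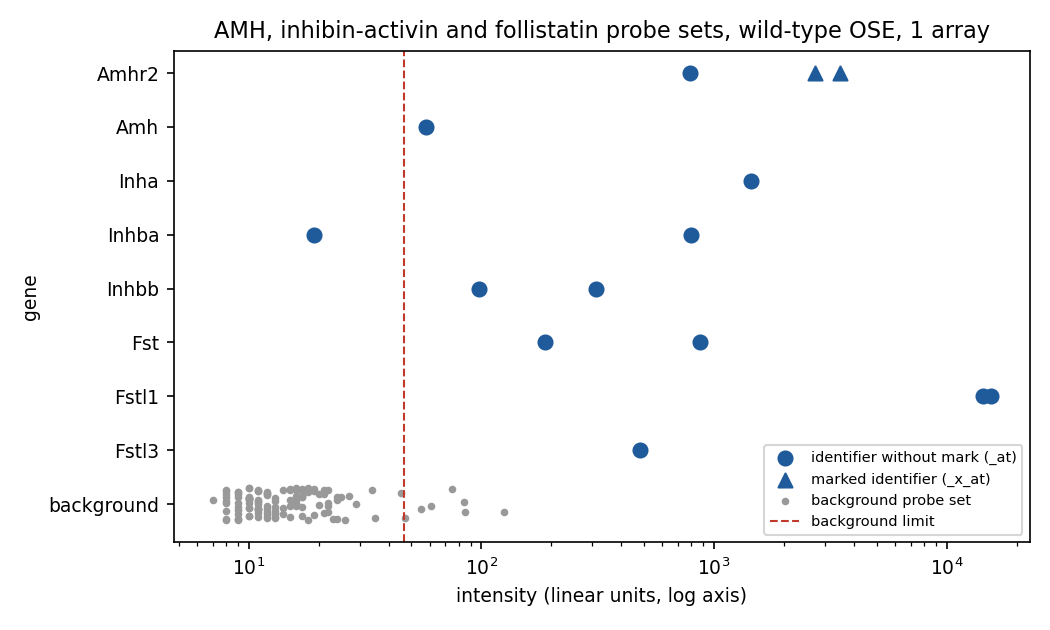
Intensity of each of the 14 probe sets of the 8 genes (log axis) in the 1 wild-type array, with the 126 background probe sets as grey points and the limit of 46.5 as a dashed line. Triangles are probe sets with identifiers that mark possible cross-hybridisation. Only the lower Inhba probe set, at 19, lies below the limit, and Amh, at 58, lies just above it.

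Amhr2 was above the limit on all of its probe sets. The intensities were 3496, 2715 and 788, which is 75.2, 58.4 and 17.0 times the limit. None of the 126 background probe sets reached the lowest of them. The 2 brighter sets have identifiers ending in _x_at, which mark probes that may also bind related transcripts, and the set at 788 has no such mark. On the unmarked set alone Amhr2 stood 4.08 above the limit on the log2 scale, against 6.23 for the brightest. Across 1054 genes above the limit with both kinds of set, the marked one was the brighter in 47.7%, with a median difference of -0.11 on the log2 scale, marked minus unmarked. For Amhr2 that difference was 2.15. The distance between its highest and lowest set was thus also 2.15, while the median distance over the 1962 genes above the limit with 3 sets was 3.57.

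Amh, the hormone that binds this receptor, was near background. Its 1 probe set had an intensity of 58, or 1.25 times the limit and 0.32 above it on the log2 scale. Of the 126 background probe sets 5 were as bright or brighter. Amh fell below the limit when the 99th percentile of background was used, at -0.55, and when Y-linked genes and genes of other organs served as background, at -0.49. The receptor and its ligand therefore differed in their standing against background, with all 3 receptor sets above every background set and the ligand's set within the background range.

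The alpha subunit gene Inha and both beta subunit genes had probe sets above background. Inha, the subunit found only in inhibins, had 1438 on its 1 probe set, which is 30.9 times the limit and above every background set. Inhba, which encodes the beta A subunit, had 797 on one probe set and 19 on the other. The brighter one stood 4.10 above the limit on the log2 scale. The dimmer one stood at -1.29, where 30 of the 126 background sets were as bright or brighter. Inhbb, which encodes the beta B subunit, had 311 and 98, both above the limit, by 2.74 and 1.08 on the log2 scale. A single background set reached 98. Transcripts for both partners of inhibin A and of inhibin B were thus above background on at least 1 probe set each, and RNA levels do not give the amount of dimer.

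Among the binding proteins, Fst and Fstl3, which block activin, were both above background. Fst, follistatin, had 873 and 188, which is 18.8 and 4.04 times the limit. Fstl3, a follistatin-like inhibitor of activin, had 482 on its 1 probe set, 10.4 times the limit. Fstl1, a secreted glycoprotein with a follistatin domain and a wide role in mesenchymal tissues, had 15487 and 14364. Its sets were 333 and 309 times the limit, and 8.38 and 8.27 above it on the log2 scale. Both Fstl1 sets gave nearly the same intensity, 1.08 times apart, whereas the Fst sets were 4.64 times apart.

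The probe sets of a gene differed by amounts that varied widely between the members. Inhba had sets 41.9 times apart, or 5.39 on the log2 scale. Only 8.30% of the 3372 genes with 2 sets and the brighter one above the limit were as far apart, and the median distance among them was 2.11. The Fst distance of 2.22 was matched or exceeded by 47.9% of these genes, and the Inhbb distance of 1.67 by 59.7%. At the other end, 97.4% of them had sets at least as far apart as those of Fstl1, at 0.11. Among all 4695 genes with 2 sets, 39.1% had both above the limit and 32.7% had sets on either side of it, as Inhba did. The annotation ties the bright Inhba set to a RefSeq mRNA and the dim one to another sequence record, and for Fst the RefSeq set was the dimmer, at 188. Over 619 genes above the limit with 1 set of each kind, the RefSeq set was the brighter in 63.7%, with a median difference of 1.43 on the log2 scale, RefSeq minus other. Which part of each transcript a probe set covers was not analysed here.

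**Figure D2:**
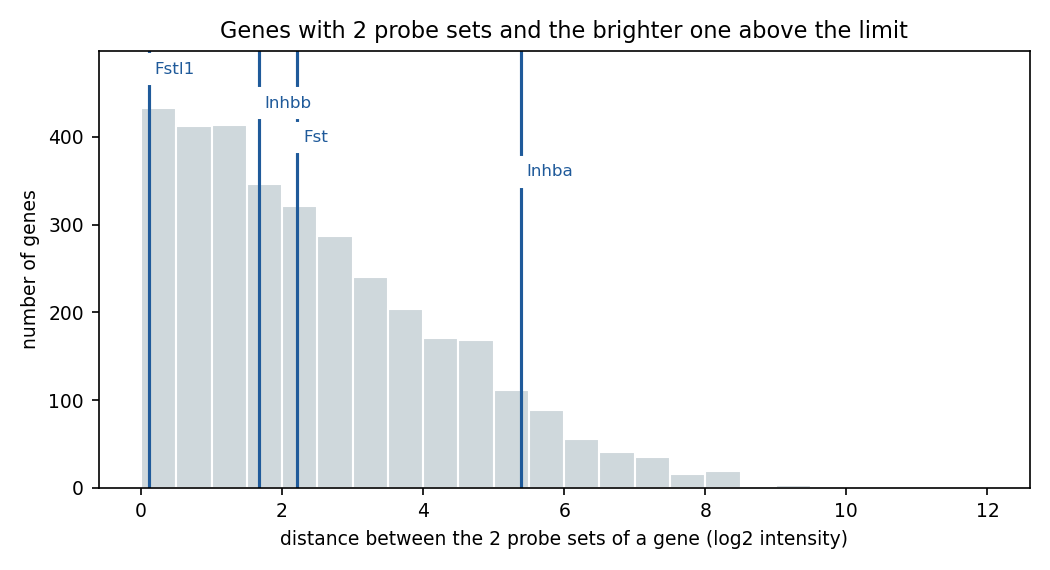
Distance between the 2 probe sets of a gene on the log2 scale of intensity (horizontal axis) against the number of genes (bars 0.5 wide), for the 3372 genes with 2 sets and the brighter one above the limit. Lines mark Fstl1 at 0.11, Inhbb at 1.67, Fst at 2.22 and Inhba at 5.39, the last in the upper tail.

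Receptors that carry these signals were read by type. All 4 type II receptor genes and 4 of 7 type I receptor genes passed, or 57.1% of the type I genes, where 62.8% of all genes did. The share was 71.8% for all genes with 2 probe sets and 82.9% for those with 3. Lists of 4 and 7 genes are too small to set apart from these shares. When the dimmest probe set stood for a gene, 2 type II and 0 type I receptor genes passed, where 7228 of all 18193 genes did. These receptor genes all have several sets, and of such genes 32.1% had every set above the limit. Among the type II receptors Acvr2a, an activin receptor, had 568 and 135. Acvr2b, the related activin receptor, had 75, 50 and 14, so that its 2 passing sets lay close to the limit. Bmpr2, a BMP receptor, had 3257 on its brightest set. Among the type I receptors, Acvr1 and Bmpr1a, which serve anti-Müllerian hormone and BMPs, had 1758 and 3240 on their brightest sets, while Bmpr1b, which serves the same ligands, had at most 19. For activin, Acvr1b had 1040 on 1 set and 26 on the other, while Acvr1c had at most 30. Acvrl1, an endothelial receptor, had 45, just under the limit. Tgfbr3, the coreceptor betaglycan through which inhibin blocks activin, had 389 on 1 of 2 sets. In this coreceptor and decoy group 2 of 4 passed, with Bambi, a decoy receptor, at 834, Igsf1, a pituitary membrane protein, at no more than 21, and Tdgf1, a coreceptor of embryonic signals, at 12.

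Of 8 SMAD genes 7 passed the limit, or 87.5%, where 62.8% of all genes did. Most of the 8 have 2 or 3 probe sets, and 71.8% and 82.9% of all such genes passed. Smad1 and Smad5, of the anti-Müllerian hormone and BMP branch, had 1538 and 757 on their brightest sets, and Smad9, of the same branch, had 25 on its 1 set. Smad2 and Smad3, of the activin branch, had 491 and 1130 on theirs. The other Smad3 sets, at 33 and 21, were below the limit, while the other Smad2 set, at 245, was above it. All 9 measured genes known to respond to SMAD signals were above the limit. They have 1 to 3 probe sets, and of all genes with 1 set 47.3% passed, with 2 sets 71.8% and with 3 sets 82.9%. Their count was 6 without marked identifiers and 7 when the dimmest set stood for a gene. Of all genes 9828 and 7228 passed under these 2 choices. Id1, an inhibitor of differentiation factors induced by the BMP branch, had 4518, Id2, a relative, had 1932, and Id3, another, had 10600. Many inputs act on these genes, and no ligand's share can be read from 1 array.

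Of 10 other measured ligands of the activin receptors 3 were above the limit, or 30.0%, against 62.8% of all genes. This count rests on the limit: 7 passed with the 90th percentile of background, a limit of 25.5, and 6 with olfactory and vomeronasal receptors alone as background, a limit of 29.3. At these 2 limits 13321 and 12827 of all 18193 genes passed. Inhbc and Inhbe, which encode further beta subunits known from liver, had 30 and 16. Gdf9, an oocyte growth factor, had 42. The 3 that passed were Bmp4, with 2729, Bmp6, with 782, and Bmp7, with 73 on 1 of 3 sets. Proteases that cut the precursors of these ligands passed in 5 of 6 cases, or 83.3%. Furin, a convertase of the secretory pathway, had 456, Pcsk5, a related convertase, had 328 on its brightest set, and Pcsk6, another, had 655.

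Of 15 other genes whose proteins carry follistatin domains, 8 passed, or 53.3%, where 62.8% of all genes did. Fstl4 and Fstl5, named for their likeness to follistatin, had at most 15 and 22, whereas Sparc, a matrix glycoprotein, had 26924 on its brightest set. Among partners of FSTL1 all 3 genes passed: Dip2a, a candidate receptor, had 469, Tlr4, a receptor of innate immunity, had 304, and Cd14, its coreceptor, had 227, on their brightest sets. Tlr4 and Cd14 are also macrophage genes. The 5 macrophage markers other than Cd14, which is on both lists, were above the limit too, of which Adgre1, a macrophage surface receptor, had 47 against 46.5. The part of macrophages in these values was not tested.

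Of 14 transcription factors that bear on Amh, Amhr2 or inhibin genes, 10 passed, or 71.4%. Nr5a1, which encodes SF-1, had 407 on 1 set and 21 on the other. The letters of the NR5A core site occur in the Amhr2 window, and binding there was not measured. Nr5a2, its relative in granulosa cells, had at most 43. Wt1, a factor of mesothelium and gonad, had 4589. Over all 80 measured pathway genes that are not members, 55 or 68.8% passed, near the 62.8% of all genes, with a median of 8.80 on the log2 scale.

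**Figure D3:**
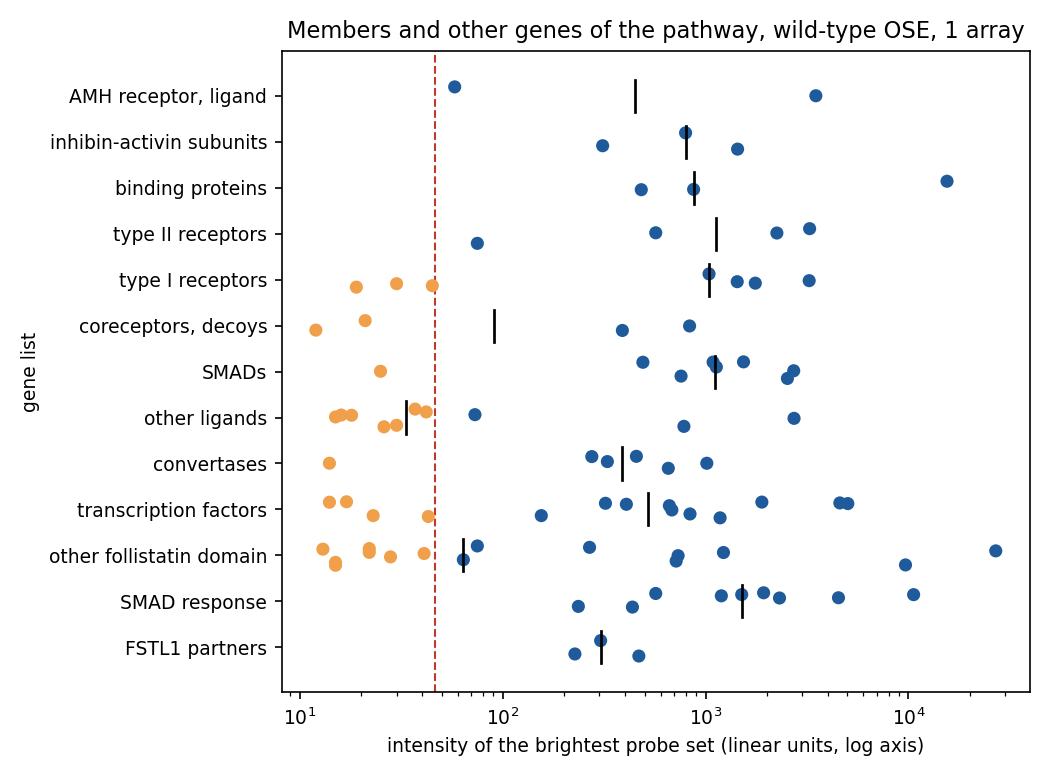
Intensity of the brightest probe set of each gene (log axis) for the members, in the top 3 rows, and 10 further lists of the pathway, in the 1 wild-type array. Blue points exceed the limit of 46.5 (dashed line), orange points do not, and black ticks are medians on the log2 scale. Other ligands of the activin receptors have 3 of 10 points above the limit, and SMAD response genes 9 of 9. Over all genes 62.8% exceed it.

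Markers of the cells that could have supplied these transcripts were read on the same array. All 10 markers of surface epithelium and mesothelium were above the limit, among them Upk3b, a uroplakin, with 20836 and 14848. Over all genes 62.8% were above it. The granulosa list shares Foxl2, Nr5a1, Nr5a2 and Esr2 with the list of transcription factors. Of 8 measured granulosa markers 3 passed: Foxl2, an ovarian transcription factor, had 321 and 11, Nr5a1 had 407 and 21, and Kctd14 had 4 sets from 172 to 562. Fshr, the receptor for follicle-stimulating hormone, and Hsd17b1, an estrogen synthesis enzyme, each had 34, and Esr2, estrogen receptor beta, had 17, so these granulosa markers were below the limit of 46.5. The granulosa count rests on that limit: 7 of 8 passed at 25.5 and also at 29.3, Fshr and Hsd17b1 among them, and 1 passed when the dimmest probe set stood for a gene. Most genes pass at the lower limits: of all 18193 genes, 13321 passed at 25.5 and 12827 at 29.3. On the dimmest set 7228 did. Theca and luteal markers passed in 3 of 5 measured cases. Star, a cholesterol transporter, had 947 to 1229, Cyp11a1, which starts steroid synthesis from cholesterol, had 381, 20 and 9, and Hsd3b1, a later enzyme, had 175. Cyp17a1, an androgen synthesis enzyme, had 18 and Ptgfr, a prostaglandin receptor, at most 35. The Sertoli-like list passed in 1 of 3 cases, with Sox9 at 155. No oocyte marker of 10 and no pituitary marker of 3 passed at 46.5, while 2 of each passed at 25.5, and 2 oocyte and 0 pituitary markers at 29.3. Fibroblast and stroma markers passed in 8 of 8 cases, smooth muscle and pericyte markers in 5 of 6, endothelial markers in 1 of 6 and oviduct markers in 1 of 3. Col1a2, a collagen gene, had 29972 on its brightest set, and Acta2, a smooth muscle actin, had 23141. The median on the log2 scale was 12.06 for fibroblast and stroma and 11.98 for smooth muscle and pericyte. For surface epithelium and mesothelium it was 12.16. These 3 medians lay close together, but probe sets differ in affinity, so they do not give the share of each cell type. When the dimmest set stood for a gene, 10 surface epithelium and mesothelium markers passed. So did 6 fibroblast and stroma markers and 2 smooth muscle and pericyte markers. In a bulk sample, fewer cells of a type and less RNA per cell cannot be told apart, and the part of granulosa, stromal or other cells in the Inha, Inhba, Fst or Fstl1 values was not tested.

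**Figure D4:**
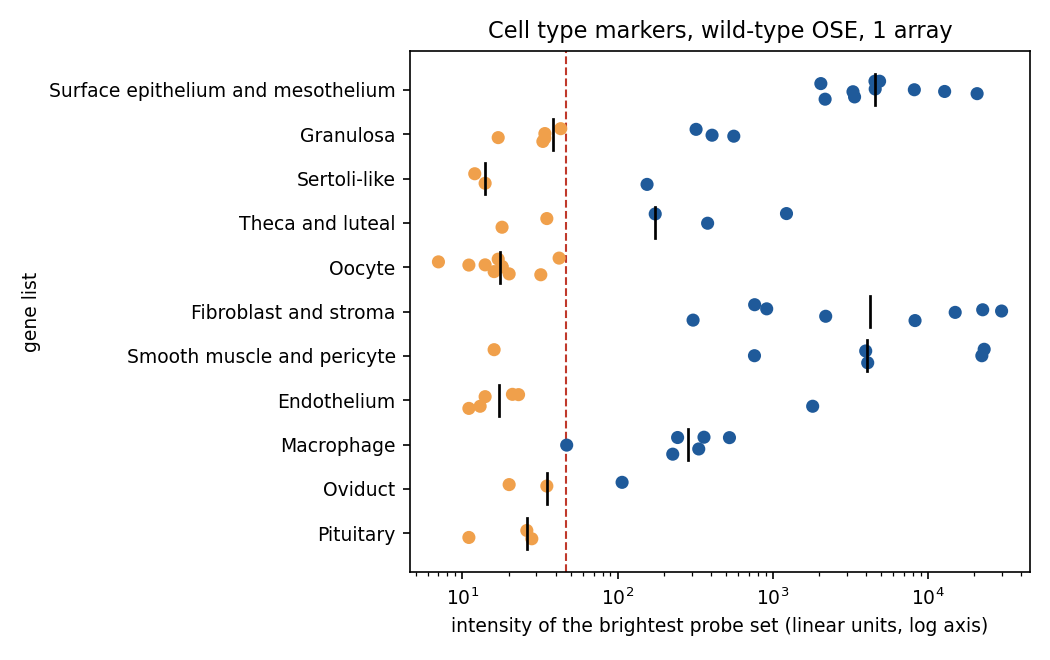
Intensity of the brightest probe set of each marker gene (log axis) for 11 cell type lists in the 1 wild-type array. Blue points exceed the limit of 46.5 (dashed line), orange points do not, and black ticks are medians on the log2 scale. Surface epithelium and mesothelium has 10 of 10 points above the limit, granulosa 3 of 8 and oocyte 0 of 10. Over all genes 62.8% exceed it.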

How the data were processed

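Total RNA of ovarian surface epithelial cells was extracted with a column kit and labelled with biotin, per the labels' protocols. The deposited table holds 1 intensity for each of 45101 probe sets, made with affy and RMA, per the submitters' processing notes. RMA subtracts background, equalises the arrays and merges the probes of each set into 1 value, and it shrinks differences between low intensities. The sources used here do not state versions, the arrays normalized together or the step to whole linear numbers from 6 to 32341.

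Intensities were put on the log2 scale, and the brightest probe set stood for its gene. Probe sets were named through the platform annotation: 34945 had 1 symbol, 932 had several and 9160 had none, and 64 were controls. Gene numbers of 34741 matched the RefSeq table, with 0 symbols changed. The limit was the 95th percentile of 126 background probe sets, of which 7 exceed it by construction. No test or p-value was possible with 1 array, which also limits the precision. The members and lists were chosen with earlier results of these data known. Named were all members, the first 3 measured genes of each pathway list, and further genes to complete groups. Those, and most of the marker genes, were named after their values were seen. The alternatives changed the limit, the background, the probe set that stands for a gene and the identifiers kept. The level and motif steps were tested on simulated data. Figures were drawn with matplotlib 3.10.9, and values computed in Python 3.11.15 with pandas 2.3.3 and NumPy 2.4.6.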

Additional observations from a re-analysis of the deposited data

How the results depend on the processing

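The count of members above background was 8 under 5 of 8 alternatives and 7 under the other 3. Not all of those 5 could have lowered it. Adding the probe sets that name several genes could not change the count, because 0 of them name a member. The 90th percentile of background and olfactory and vomeronasal receptors alone gave limits of 25.5 and 29.3. Both are lower than the limit that all 8 members had already passed, so the count could not fall there. Amh was lost with the limit at the 99th percentile, at -0.55 on the log2 scale, and with Y-linked genes and genes of other organs as background, at -0.49. Inhba was lost, at -1.29, when the dimmest probe set stood for a gene. That choice moved other values too. The members' median over the limit became 2.69, against 4.16 with the brightest set, and the count of all genes above the limit became 7228, against 11432. With it, type II receptors had 2 genes above the limit, type I receptors 0, coreceptors and decoys 1, convertases and proteases 3, transcription factors 5 and other follistatin domain genes 4. Other ligands of the activin receptors had 7 genes above the limit at the 90th percentile and 6 with olfactory and vomeronasal receptors as background. The count of all genes was 13321 and 12827 under these choices. Taking the lowest set can only lower a level, by construction. Marker counts moved as well. Granulosa markers numbered 7 at the 90th percentile and with olfactory and vomeronasal receptors as background, and 1 with the lowest set. Oocyte markers numbered 2 and oviduct markers 2 at both of those limits, and pituitary markers 2 at the 90th percentile. With the lowest set, smooth muscle markers numbered 2, Sertoli-like 0 and oviduct 0, the last also with the mean set. Macrophage markers numbered 5 at the 99th percentile, with Y-linked genes and genes of other organs as background, and without marked identifiers. Without marked identifiers, surface epithelium and mesothelium markers numbered 7, against 10, and SMAD response genes 6, against 9. Genes that have only marked sets drop out under that choice, and the count of all genes was 9828. SMAD response genes numbered 7 with the lowest set. No paired analysis was possible because only 1 sample was analysed, and 1 array limits the precision of every value.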
